A study of Mus musculus with 8 samples.

Results

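The response of CD90pos mouse mammary tumour cells to interferon gamma (IFNg) was compared, gene by gene, with the response of CD90neg cells of the same tumour line. For each gene and for each of the letters A and B in the library names, the change of CD90pos cells (IFNg minus control) had the change of CD90neg cells subtracted from it, on the log2(normalised reads + 1) scale. A positive difference in response therefore means that IFNg moved the gene upward more, or downward less, in CD90pos cells. All 8 libraries of the series entered the comparison, and 12962 of the 12964 deposited genes reached 10 normalised reads in at least 2 libraries and were tested. The groups were CD90pos cells with IFNg, CD90pos cells under control conditions, CD90neg cells with IFNg and CD90neg cells under control conditions, with 1 library of letter A and 1 of letter B in each. IFNg was given at 10 IU/ml for 24 h. All groups carried the genotype label WT, the cell line label PyMT and the tissue label primary mammary tumor, and all were kept in medium with 2% serum, 10 µg/ml insulin and 20 ng/ml EGF, so the controls were also growth factor treated. PyMT stands for the polyoma middle T oncogene, and the promoter that drives it, the number of animals, and whether sorting came before or after IFNg are not given in the sources used here. RNA came from cells sorted by flow cytometry on CD90, and the libraries were stranded mRNA libraries with between 31243646 and 40899909 reads recovered per library. The labels do not tie libraries to cultures or animals, and the p-values therefore describe the spread among these particular libraries, which could be technical.

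IFNg binds a receptor made of Ifngr1 and Ifngr2, which activates the kinases JAK1 and JAK2. Transcription factors downstream of these kinases bind the GAS element of target promoters, and together with the induced factor IRF1 they raise the genes of antigen presentation, chemokines and antimicrobial GTPases. SOCS proteins and the phosphatases PTPN2 and PTPN11 (SHP2) act on the same signal. CD90 is a surface glycoprotein encoded by Thy1 and is found on fibroblasts, T cells of the mouse, basal mammary cells and stem-like tumour cells.

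No gene passed the test for a different response: limma called 0 of 12962 genes (0%) at an adjusted p under 0.05, and the smallest adjusted p was 0.783. With the letter as a replicate block limma also called 0 genes (0%, smallest adjusted p = 0.179), and edgeR on the recovered reads called 0 (0%). At an unadjusted p under 0.05 limma held 286 genes with a higher response in CD90pos cells (2.21%) and 540 with a lower response (4.17%), edgeR held 264 higher and 576 lower, and limma with the block held 926 higher and 1228 lower. DESeq2 on the same reads called 43 higher (0.793%) and 139 lower (2.56%) of the 5423 genes to which it gave an adjusted p, and with the block 195 higher (2.12%) and 391 lower (4.25%) of 9192. Without CD90pos control A, the library with the highest mitochondrial share, limma called 0 genes and held 769 higher and 526 lower at an unadjusted p under 0.05, and without CD90pos control B it called 0 and held 367 higher and 719 lower. The calls of DESeq2 are named as such below, and "passed the test" is kept for limma. The differences were modest for most genes. Their median was 0.01 and their median size 0.31, and 95.1% of genes lay under 1 in size. The 95% confidence interval of the median gene reached 0.96 to either side without the block and 0.60 with it. Smaller differences were thus not detectable for a typical gene with 2 libraries a group. Larger ones could also go uncalled, since these intervals are not adjusted for the number of genes. Tmem70 differed by -1.14 ± 0.19 and had an adjusted p of 0.783 in limma.

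**Figure D1:**
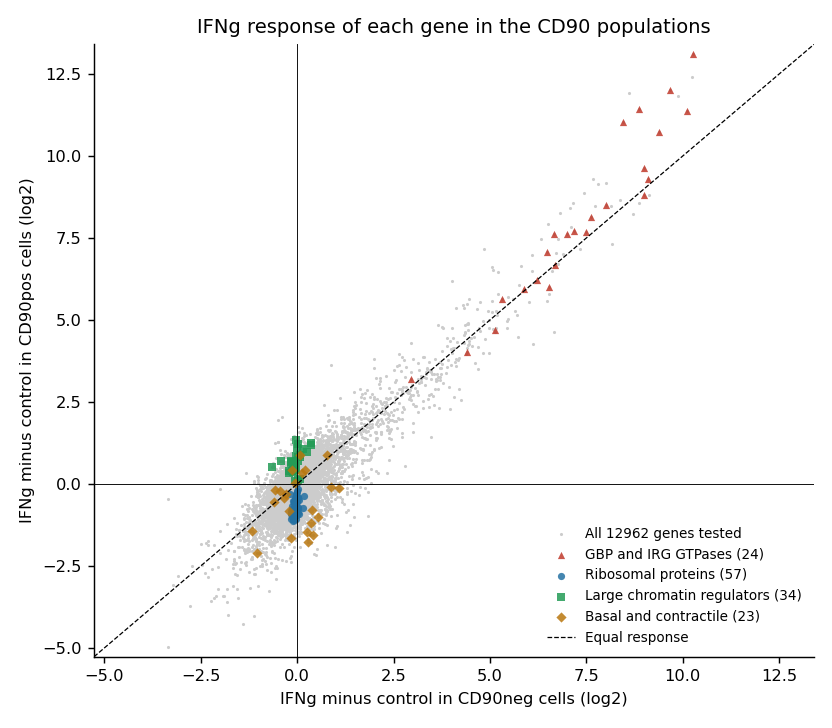
Each grey point is 1 of the 12962 genes tested, placed by its mean IFNg response in CD90neg cells (x axis, log2) and in CD90pos cells (y axis, log2), with 4 gene groups coloured and the dashed line marking an equal response. The strongly induced GBP and IRG genes lie near or above the line, ribosomal protein genes lie below it near an x value of 0, and large chromatin regulators lie above it.

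The letters gave partly the same picture. Across genes, the difference in letter A and in letter B had a Pearson coefficient of 0.33 and a Spearman coefficient of 0.42, given as a description over 12962 genes that share their libraries and are not independent. The response was higher in CD90pos cells in both letters for 4338 genes (33.5%) and lower in both letters for 4242 (32.7%). A difference of at least 0.5 in both letters was found for 547 genes on the higher side (4.22%) and 1184 on the lower side (9.13%).

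**Figure D2:**
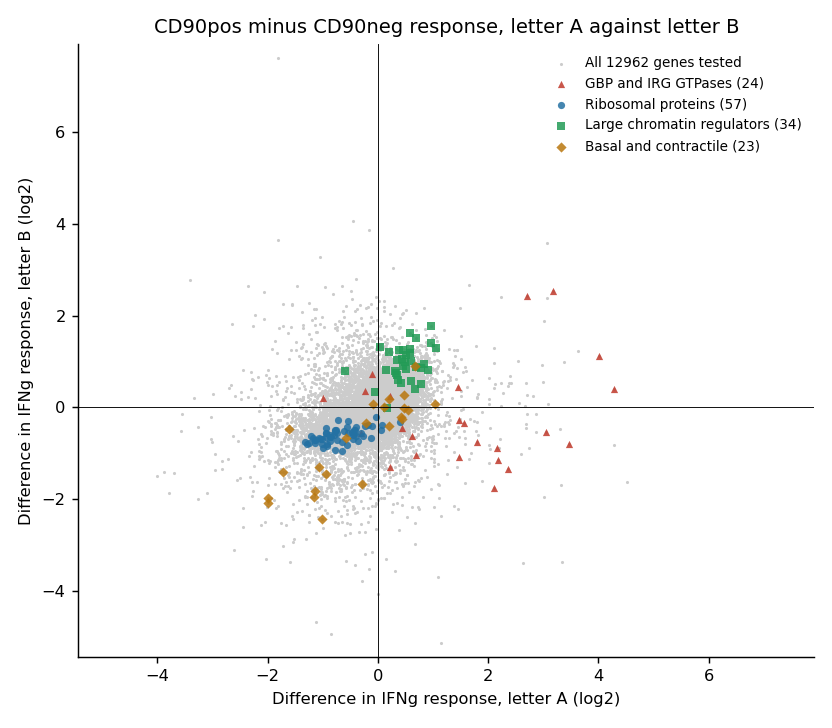
The difference in IFNg response (CD90pos minus CD90neg, log2) of every tested gene in letter A (x axis) and in letter B (y axis), with the same gene groups coloured. Of the ribosomal protein genes 54 of 57 sit in the lower left and of the large chromatin regulators 31 of 34 in the upper right, whereas the GBP and IRG genes lie mostly at positive values in letter A and on both sides of 0 in letter B.

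The difference can be read as the gap between the populations in the IFNg libraries minus their gap in the control libraries. The gap was narrow with IFNg and wider without it. Its median size over all genes was 0.11 in letter A and 0.12 in letter B in IFNg libraries, against 0.35 and 0.38 in control libraries. Genes that differed by at least 1 in the same direction in both letters numbered 21 higher and 27 lower in CD90pos cells with IFNg, against 188 higher and 47 lower under control conditions. Limma called 0 genes between the populations in either condition. With the block it called 0 between the IFNg libraries and, between the control libraries, 881 genes higher and 570 lower in CD90pos cells. Unadjusted p under 0.05 was reached by 17 genes in IFNg and 1898 in control libraries without the block, and by 168 and 3961 with it. The response itself was called for 273 genes upward and 273 downward in CD90pos cells, against 82 upward and 1 downward in CD90neg cells. With the block the counts were 1815 upward and 1763 downward in CD90pos cells, against 451 upward and 86 downward in CD90neg cells. A call in one population and not in the other does not show a difference, and the test of the difference is the one above.

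Among the genes that IFNg raised most, the gap between the populations spread less in IFNg than in control libraries, and its median lay well below 0 in the controls of letter A. They are the 60 genes with the largest mean IFNg effect over both populations. That ranking does not use the difference between the populations, but it favours genes with few reads in the controls. At few reads a small change moves the log2 gap widely, so a wider spread in controls is partly built in by the choice. Their median response was 7.70 in CD90pos cells and 7.08 in CD90neg cells on the log2 scale. In the IFNg libraries the median gap of the 60 genes was 0.19 in letter A and -0.10 in letter B, against -1.29 and 0.05 in the control libraries. The middle 50% of genes lay between 0.09 and 0.35 (A) and between -0.32 and 0.08 (B) in IFNg libraries, against -2.36 to -0.34 (A) and -0.54 to 0.71 (B) in controls. Averaged over the letters, the IFNg gap lay within 0.5 for 52 of the 60 and within 1 for all 60. The letters disagreed on it: the median difference in response was 1.53 in letter A, with 53 of 60 genes higher in CD90pos cells, and -0.24 in letter B, with 25 of 60 higher. In both letters 20 of the 60 were higher and 2 lower, beside 33.5% and 32.7% of all genes, and 38 had opposite signs. The control level of these genes was near nothing, and 36 of the 60 had a control library at 3 reads or fewer, which is 2.55 to 3.37 normalised reads depending on the library. DESeq2 called 0 of the 60 without and 2 with the block, beside 2.12% higher and 4.25% lower of the genes with an adjusted p with the block.

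Nos2, the inducible nitric oxide synthase, had the largest difference among the effector enzymes and checkpoint genes that was alike in both letters. It stood at 29166 (A) and 17651 (B) normalised reads in CD90pos cells with IFNg and at 15.3 and 1.12 in CD90pos control cells. In CD90neg cells it stood at 18922 and 23194 with IFNg and at 87.5 and 32.3 in controls. The IFNg libraries of the populations overlapped, whereas both CD90pos control libraries lay below both CD90neg control libraries. It differed in response by 3.32 ± 1.38 (SE; 3.06 in A and 3.58 in B; adjusted p = 0.788 in limma and 0.204 with the block). Its size depends on the value added before taking logs, and was 3.52 with 0.5 and 2.51 with 5.

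The CXCR3 ligands Cxcl9, Cxcl10 and Cxcl11, chemokines that draw activated T cells, were each higher in the CD90pos IFNg libraries than in the CD90neg library of the same letter. Cxcl10 reached 41496 and 40202 normalised reads in CD90pos cells with IFNg, against 29909 and 26178 in CD90neg cells with IFNg, without overlap. Its controls were 59.1 and 190 in CD90pos cells and 222 and 170 in CD90neg cells, which overlap. Its response differed by 1.41 ± 0.72 (2.37 in A, 0.46 in B; adjusted p = 0.852 in limma). For Cxcl11 the IFNg levels were 184 and 230 in CD90pos cells and 94.6 and 178 in CD90neg cells, and the controls 1.09 and 0 in CD90pos cells and 4.12 and 3.12 in CD90neg cells, all near the limit of a few reads. Its difference was 2.32 ± 1.10, and 2.86 or 1.28 with 0.5 or 5 added before taking logs. Cxcl9 differed by 3.37 in A and 0.99 in B, and its mean of 2.18 had a 95% interval from -3.67 to 8.03. Of the 27 chemokines and cytokines tested, 9 were higher and 7 lower in both letters, beside 33.5% and 32.7% of all genes. The list median was -0.10.

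The guanylate-binding proteins (GBP) and immunity-related GTPases (IRG) attack the vacuoles of intracellular microbes. Gbp4 had 67146 and 38356 normalised reads in CD90pos cells with IFNg and 67624 and 40960 in CD90neg cells with IFNg, almost the same level in each letter. Its controls were 31.7 and 0 in CD90pos cells and 297 and 5.20 in CD90neg cells. The difference in response, 2.86 ± 3.09, thus came from the control libraries, where each letter was lower in CD90pos cells. Gbp6 behaved likewise, with 6032 and 3865 in CD90pos IFNg libraries, 4.38 and 0 in CD90pos controls, 5651 and 4443 in CD90neg IFNg libraries and 31.9 and 5.20 in CD90neg controls. Over the 11 GBP genes the median difference was 0.60, with 1.48 in A and -0.34 in B. In both letters 3 were higher and 0 lower, beside 33.5% and 32.7% of all genes. DESeq2 called 1 of the 11 with the block, beside 2.12% of the genes with an adjusted p. It was Gbp2b (adjusted p = 0.0381 in DESeq2 with the block), named for that call. Gbp2b had 55603 and 100 normalised reads in CD90pos and 43682 and 73.2 in CD90neg cells with IFNg, and 146 and 0 in CD90pos and 314 and 0 in CD90neg controls. Its difference was 1.45 in A and 0.45 in B, and its adjusted p in limma with the block was 0.541. The 13 IRG genes had a median of 0.30, with 1.80 in A and -0.56 in B. In both letters 3 were higher and 1 lower, beside 33.5% and 32.7% of all genes. Irgm1, a regulator of the family, had the smallest p among the 13 and a lower response in both letters (-0.31 in A, -0.56 in B). F830016B08Rik differed by 2.56 ± 1.78, higher in both letters. It was the 1 gene of the 13 that DESeq2 called with the block (adjusted p = 0.0043), beside the same 2.12%. Tgtp2, an IRG family GTPase, shows the split of the letters: its difference was 4.29 in A and 0.40 in B. Tgtp1 and Tgtp2 are near-identical copies, so the split of reads between them is uncertain.

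The promoters of 3 IFNg targets are shown because they hold the GAS core TTCNNNGAA, which reads the same on both strands, printed in capitals. They are the RefSeq sequences of GRCm38.p6, on the gene's strand, from 250 bases before to 50 bases after the start. Irf1 lies at chr11:53769764-53770063 on the plus strand, Socs3 at chr11:117969317-117969616 on the minus strand and Tgtp2 at chr11:49064163-49064462 on the minus strand.
Irf1: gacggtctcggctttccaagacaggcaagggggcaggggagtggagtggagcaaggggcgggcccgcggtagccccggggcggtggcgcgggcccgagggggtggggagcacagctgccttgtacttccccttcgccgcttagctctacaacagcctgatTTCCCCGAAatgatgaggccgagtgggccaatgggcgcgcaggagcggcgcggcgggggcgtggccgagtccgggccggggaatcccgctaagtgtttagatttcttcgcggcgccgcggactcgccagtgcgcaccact
Socs3: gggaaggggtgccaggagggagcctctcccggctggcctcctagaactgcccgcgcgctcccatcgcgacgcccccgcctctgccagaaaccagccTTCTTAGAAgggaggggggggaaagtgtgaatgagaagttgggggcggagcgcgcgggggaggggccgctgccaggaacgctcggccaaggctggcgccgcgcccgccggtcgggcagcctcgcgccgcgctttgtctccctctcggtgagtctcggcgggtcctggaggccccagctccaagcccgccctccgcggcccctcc
Tgtp2: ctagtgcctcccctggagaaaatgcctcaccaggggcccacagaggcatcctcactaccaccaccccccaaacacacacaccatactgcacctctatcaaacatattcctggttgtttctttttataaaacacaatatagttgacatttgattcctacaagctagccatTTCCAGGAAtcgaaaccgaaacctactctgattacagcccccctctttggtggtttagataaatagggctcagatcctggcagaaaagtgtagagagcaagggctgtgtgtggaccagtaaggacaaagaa
The motif begins 90, 154 and 81 bases before the start in Irf1, Socs3 and Tgtp2. They were picked after the motif search, as a factor, a feedback gene and a GTPase. Of the 60 most induced genes, 33 had a promoter in the RefSeq table and 13 of these (39.4%) held the core, against 8.23% of the 9915 tested genes with a promoter there and 8.30% of all 32851 promoters. It was held by 3 of 44 ribosomal protein genes with a promoter, 4 of 46 genes of nuclear oxidative phosphorylation, 3 of 23 large chromatin regulators and 0 of 14 basal and contractile genes. A match is a description of letters and not a bound site.

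The 10 receptor and signalling genes had differences in response between -0.47 and 0.48, and none passed the test. Irf1 had 23340 and 26816 normalised reads in CD90pos cells with IFNg and 600 and 2172 in CD90pos controls, beside 23697 and 30453 in CD90neg cells with IFNg and 701 and 1954 in CD90neg controls. The libraries of the populations overlapped in both conditions. Its response differed by -0.07, with a 95% interval from -2.48 to 2.35, or -1.40 to 1.27 with the block. Socs3, a feedback inhibitor of JAK signalling, differed by 0.47 (0.53 in A, 0.41 in B). Irf1 and the checkpoint gene Cd274 were chosen after their values were seen, as landmarks of the response. Ptpn11, the phosphatase SHP2, had 10547 and 10418 in CD90pos IFNg libraries and 7334 and 7869 in CD90pos controls, while all 4 CD90neg libraries lay between 9573 and 10231. Its difference was 0.48 ± 0.16 (adjusted p = 0.783 in limma). DESeq2 called it without the block (adjusted p = 0.0398) and not with it (0.0548). Ifngr1 differed by -0.47 ± 0.46, with -0.50 in A and -0.43 in B, and its control level was higher in the CD90pos library of each letter. Among the 10 receptor and signalling genes, 3 were higher and 3 lower in both letters, beside 33.5% and 32.7% of all genes. Of the 16 IRF, Batf2-type and SOCS genes, 8 were higher and 2 lower in both letters, beside the same shares, with a median of 0.16.

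Antigen presentation genes did not share a direction of the difference, though class I genes were lower in both letters more often than higher. For the 26 MHC class I presentation genes the median response was 2.97 in CD90pos and 3.04 in CD90neg cells, and the median difference was -0.23 (0.03 in A, -0.44 in B). In both letters 2 of them were higher and 10 lower, beside 33.5% and 32.7% of all genes. H2-T10, a non-classical class I gene, had 518 and 390 normalised reads in CD90pos and 490 and 391 in CD90neg cells with IFNg, and 76.6 and 95.4 in CD90pos and 44.3 and 59.3 in CD90neg controls. Its control libraries did not overlap and its IFNg libraries did, and the difference was -0.69 ± 0.44 (-0.70 in A, -0.68 in B). H2 genes are close relatives, so reads could be split between them. B2m, the light chain of class I, differed by -0.56 and Psmb9, an immunoproteasome subunit, by -0.47, each lower in both letters. The 12 class II genes had a median of -0.01. Cd74, the class II invariant chain, differed by 3.30 in A and -0.46 in B, and H2-Ab1, a class II chain, by 0.01 in A and -4.06 in B, where its CD90neg control stood at 1.04 normalised reads. Cd274, which encodes PD-L1, had 11388 and 2642 in CD90pos IFNg libraries, 46.0 and 38.2 in CD90pos controls, 10892 and 2597 in CD90neg IFNg libraries and 71.0 and 27.0 in CD90neg controls. Within a letter its IFNg levels were almost equal, and the difference was 0.11. Of 40 antiviral genes, 13 were higher and 10 lower in both letters, with a median of -0.02. Znfx1, an antiviral RNA helicase, was the only one of them that DESeq2 called, and only with the block (difference 0.65, adjusted p = 0.0217). That is 1 of 40, beside 2.12% of the genes with an adjusted p.

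**Figure D3:**
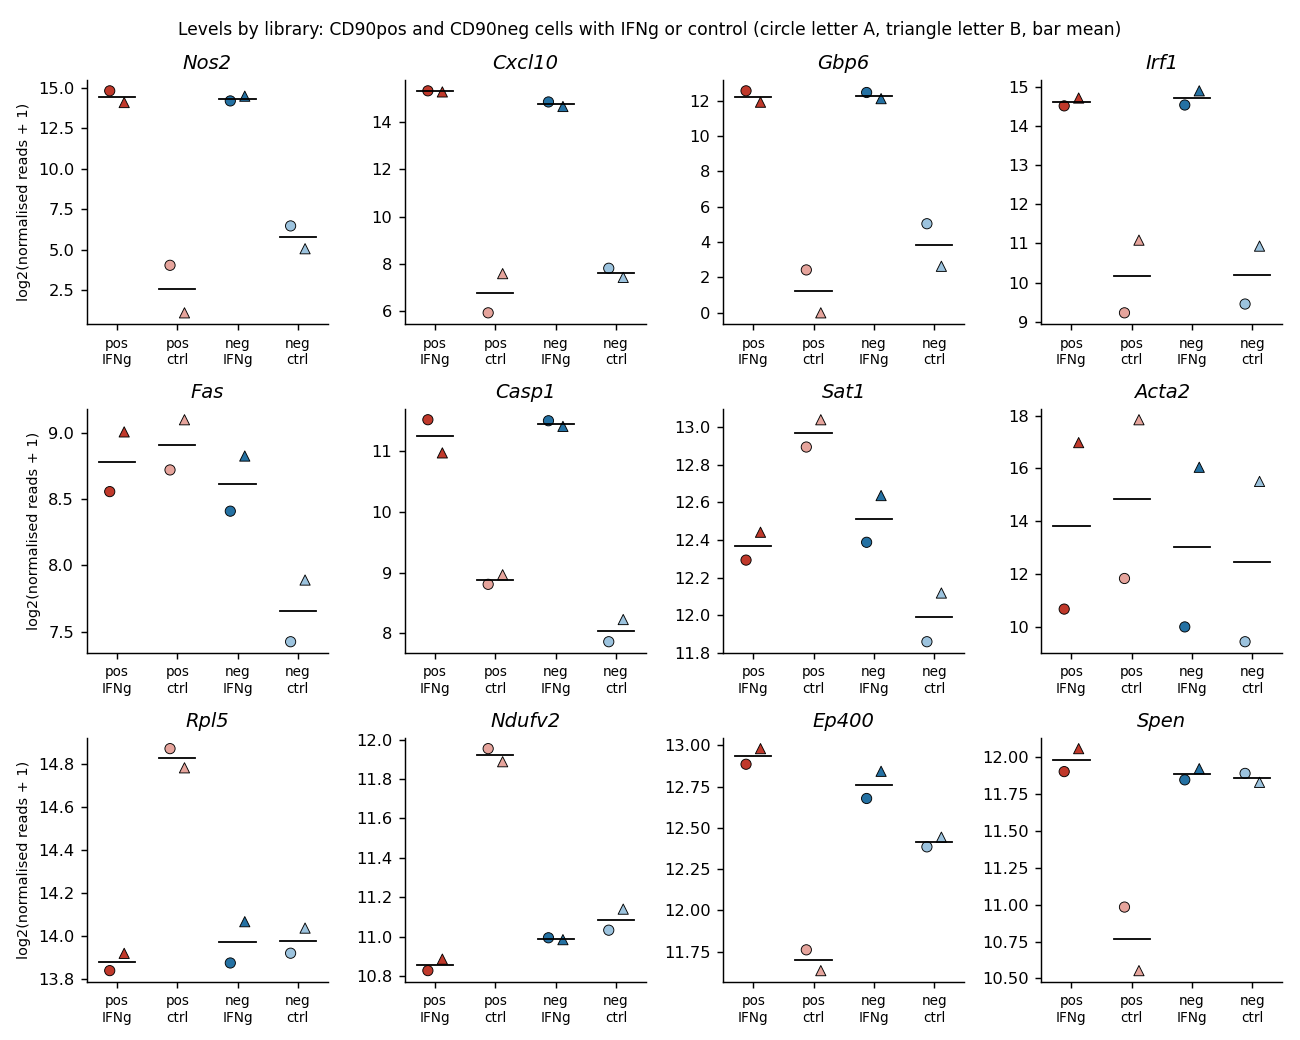
log2(normalised reads + 1) of 12 genes in each library (y axes, which differ between panels and do not start at 0), by group on the x axis, with IFNg beside its control and CD90pos left of CD90neg; circles are letter A, triangles letter B and bars the mean of 2 libraries. In most panels the IFNg libraries of the populations are close together, and the CD90pos controls stand apart from the CD90neg controls.

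Death genes had no common direction. Of 24 death effectors, 9 were higher and 9 lower in both letters, beside 33.5% and 32.7% of all genes, and the median was -0.02. Fas, from the checkpoint and effector enzyme list, and Casp1, a death effector, are named among their lists' members with the smallest p. Of the 24 death effectors DESeq2 called 1 with the block, as lower, beside 4.25% of the genes with an adjusted p. It was not Casp1 (adjusted p = 0.0572 in DESeq2 with the block). Fas, the death receptor, had 375 and 513 normalised reads in CD90pos cells with IFNg and 420 and 547 in CD90pos controls, beside 339 and 452 in CD90neg cells with IFNg and 171 and 236 in CD90neg controls. Its CD90neg controls were below all 6 other libraries. The response was -0.13 in CD90pos and 0.96 in CD90neg cells, and the difference -1.09 ± 0.42 (adjusted p = 0.783 in limma and 0.179 with the block). DESeq2 called it with the block (adjusted p = 0.00505), the 1 gene so called of the 22 in its list. Casp1, the inflammasome protease, reached 2923 and 2002 in CD90pos and 2889 and 2710 in CD90neg cells with IFNg, with controls of 447 and 498 in CD90pos and 232 and 299 in CD90neg cells. It was induced in both populations (adjusted p = 0.0169 in CD90pos and 0.0109 in CD90neg cells, limma), and its difference was -1.05 ± 0.33 (adjusted p = 0.783). Sat1, which acetylates polyamines and was picked after its values were seen, had responses of opposite sign: 5017 and 5561 in CD90pos cells with IFNg and 7614 and 8420 in CD90pos controls, beside 5358 and 6366 in CD90neg cells with IFNg and 3713 and 4443 in CD90neg controls. The controls did not overlap, and the difference was -1.12 ± 0.22 (-1.13 in A, -1.12 in B; adjusted p = 0.783 in limma, 0.00301 in DESeq2). Bnip3, a mitophagy receptor that hypoxia induces, differed by -1.14 ± 0.42.

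Acta2, Tagln and Actg2, smooth muscle genes that mark myoepithelial cells, had a lower response in CD90pos cells in both letters. The list of basal and contractile genes had smaller gaps: its median CD90pos minus CD90neg gap was 0.13 in A and 0.76 in B in IFNg libraries, against 0.04 and 1.09 in controls. Acta2, smooth muscle actin, had 1639 and 129112 normalised reads in CD90pos cells with IFNg and 3658 and 235195 in CD90pos controls. In CD90neg cells it had 1027 and 67619 with IFNg and 696 and 46629 in controls. Letter B was far above letter A in every group, so the spread within a group swamps the difference unless the letters are compared within themselves. The gap between CD90pos and CD90neg was 0.67 and 0.93 (A and B, log2) in IFNg libraries and 2.39 and 2.33 in controls. The difference in response was -1.72 in A and -1.40 in B. The standard error was 4.96 without the block and 0.17 with it, the adjusted p-values in limma were 1 and 0.179, and DESeq2 called the gene with the block (adjusted p = 5.08e-11). Acta2 was named after its values were seen. Tagln (transgelin) differed by -1.98 over both letters, with a standard error of 4.79 without and 0.29 with the block. Actg2 (enteric smooth muscle actin) differed by -2.04, with a standard error of 4.57 without and 0.60 with the block. Tagln had 680 and 54860 in CD90pos IFNg libraries and 2495 and 131590 in CD90pos controls, against 443 and 28939 in CD90neg IFNg libraries and 407 and 17734 in CD90neg controls. Among the 23 basal and contractile genes, 12 were lower and 5 higher in both letters, beside 32.7% and 33.5% of all genes. The median was -0.28, beside 0.01 over all genes tested. Since the letters lie far apart, that median was 0.94, 0.93, 0.71 and 0.59 without CD90pos IFNg A, CD90pos control B, CD90neg IFNg B and CD90neg control A, and with the letter as a block the 8 values without 1 library ran from -0.64 (without CD90pos control A) to 0.02 (without CD90neg control B). With the block DESeq2 called 6 lower and 1 higher, beside 4.25% and 2.12% of the genes with an adjusted p. The higher one was Itgb4, the integrin of hemidesmosomes, which had 22189 and 24034 in CD90pos cells with IFNg and 13346 and 11899 in CD90pos controls, against 20434 and 18310 in CD90neg cells with IFNg and 19619 and 16938 in CD90neg controls. Its difference was 0.79 ± 0.21 (adjusted p = 0.783 in limma, 0.0233 in DESeq2). In bulk RNA, fewer cells of a type and less RNA per cell cannot be told apart.

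Of 40 genes of mesenchymal cells and matrix, 25 had a lower and 5 a higher response in CD90pos cells in both letters, beside 32.7% and 33.5% of all genes. The median difference was -0.61, with -0.27 in A and -1.16 in B. Lox, which crosslinks collagen, had 85.9 and 156 normalised reads in CD90pos cells with IFNg and 373 and 1257 in CD90pos controls, against 121 and 148 in CD90neg cells with IFNg and 179 and 221 in CD90neg controls. Both CD90pos controls lay above the other 6 libraries, and the difference was -1.99 ± 0.86 (adjusted p = 0.788). S100a4, a calcium-binding protein of motile cells, differed by -1.42 ± 0.46, with 91.8 and 117 in CD90pos IFNg libraries and 419 and 562 in CD90pos controls, against 103 and 151 in CD90neg IFNg libraries and 247 and 189 in CD90neg controls. Mmp3 (stromelysin) had the largest difference of the list, -2.85 ± 1.60, with levels of 37.5 and 115 in CD90pos IFNg libraries, 2586 and 641 in CD90pos controls, 92.0 and 321 in CD90neg IFNg libraries and 1029 and 205 in CD90neg controls. Zeb1, a repressor of epithelial genes, differed by -0.92 ± 0.44. Ogn, a small leucine-rich proteoglycan of matrix named after its values were seen, differed by -2.37 ± 0.96. The list's median gap was -0.19 in A and 0.14 in B in IFNg libraries, against 0.05 and 0.95 in control libraries, so the CD90pos excess of the list as a whole was in letter B.

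Ribosomal and respiratory genes had the most uniform lower response. The mRNAs of cytosolic ribosomal proteins took 3.03% and 2.87% of the normalised reads in CD90pos cells with IFNg and 4.94% and 4.50% in CD90pos controls, against 3.21% and 3.11% in CD90neg cells with IFNg and 3.35% and 3.27% in CD90neg controls. The CD90pos controls stood alone, and the other 6 libraries lay close together. The difference in response was lower in CD90pos cells in both letters for 54 of 57 genes, beside 32.7% of all genes, and the median was -0.69 (-0.74 in A, -0.61 in B). An unadjusted p under 0.05 in limma was reached on the lower side by 41 of the 57, beside 4.17% of all genes. These genes share their libraries and are not independent. DESeq2 called 29 without and 38 with the block as lower, beside 2.56% and 4.25% of the genes with an adjusted p. Rpl5, a protein of the large subunit, had 14645 and 15483 normalised reads in CD90pos cells with IFNg and 29927 and 28135 in CD90pos controls, against 15010 and 17145 in CD90neg cells with IFNg and 15490 and 16794 in CD90neg controls. Its difference was -0.94 ± 0.19 (adjusted p = 0.783 in limma, 0.00043 in DESeq2). Rpl35a, another of the large subunit, differed by -0.93 ± 0.18. Ribosomal protein genes have many processed pseudogenes that could share reads with them.

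Of the 56 nuclear genes of oxidative phosphorylation, 45 were lower in both letters and none higher, beside 32.7% and 33.5% of all genes, and the median was -0.69 (-0.71 in A, -0.62 in B). DESeq2 called 13 as lower without and 32 with the block, beside 2.56% and 4.25% of the genes with an adjusted p. Ndufv2, a subunit of complex I, had 1817 and 1892 normalised reads in CD90pos cells with IFNg and 3966 and 3788 in CD90pos controls, against 2039 and 2026 in CD90neg cells with IFNg and 2095 and 2255 in CD90neg controls. It had the smallest unadjusted p of all genes on the lower side (0.00099) and a difference of -0.97 ± 0.16 with a 95% interval from -1.36 to -0.57. Sdhd, a membrane anchor of complex II, differed by -0.85 ± 0.17. Tmem70, an assembly factor of ATP synthase, differed by -1.14 ± 0.19, with 1882 and 1980 in CD90pos IFNg libraries and 5412 and 5669 in CD90pos controls, against 1728 and 1663 in CD90neg IFNg libraries and 2004 and 2428 in CD90neg controls. Snrpe, a core protein of spliceosomal particles, differed by -1.16 ± 0.22, while the 42 spliceosome genes as a list had a median of -0.04. The mitochondrially encoded genes did not follow the nuclear ones: their median CD90pos minus CD90neg gap in controls was 0.95 in A and -1.13 in B, and none of the 9 had a difference in response of the same sign in both letters. They took 1.23% and 0.952% of reads in CD90pos cells with IFNg and 2.31% and 0.670% in CD90pos controls, against 1.28% and 0.927% in CD90neg cells with IFNg and 1.24% and 1.56% in CD90neg controls.

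Large chromatin regulators had the opposite sign. Of 34 tested, 31 were higher in CD90pos cells in both letters and none lower, beside 33.5% of all genes higher in both, and the median was 0.73 (0.50 in A, 0.92 in B). It was 0.41 without CD90pos control B, and 0.37 with the block. DESeq2 called 2 without and 8 with the block as higher, beside 0.793% and 2.12% of the genes with an adjusted p. Ep400, a chromatin-remodelling ATPase, had 7570 and 8083 normalised reads in CD90pos cells with IFNg and 3470 and 3179 in CD90pos controls, against 6555 and 7349 in CD90neg cells with IFNg and 5349 and 5571 in CD90neg controls. It had the smallest unadjusted p on the higher side (0.00221), and the difference was 0.89 ± 0.18. Spen, a transcriptional repressor that acts in X inactivation and Notch signalling, had 3829 and 4266 in CD90pos cells with IFNg, 2025 and 1502 in CD90pos controls, 3684 and 3883 in CD90neg cells with IFNg and 3797 and 3641 in CD90neg controls, and differed by 1.19 ± 0.24. Arid1a, a subunit of the BAF remodelling complex, differed by 0.89 ± 0.32.

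The other genes with the smallest p on the higher side were Ubap2, a ubiquitin-associated protein, Prrc2a, an RNA-binding protein, and Ubr4, a ubiquitin ligase of the N-degron pathway. Ubap2 had 8730 and 8896 normalised reads in CD90pos cells with IFNg and 5248 and 4410 in CD90pos controls, while its 4 CD90neg libraries lay between 8135 and 8699. Prrc2a differed by 1.07 ± 0.23 and Ubr4 by 1.28 ± 0.27. In each of these genes both CD90pos controls lay below the other 6 libraries, which ran from 11006 to 16722 in Ubr4. The genes were picked for a small p, so such a separation is expected from the choice and adds no support.

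Transcript length moved with these results. The summed exonic length of a gene in GENCODE vM21 correlated with its difference in response with a Spearman coefficient of 0.32 over 12947 genes (0.18 in A, 0.37 in B), as a description across genes of the same libraries. In the decile of genes with the shortest exonic length the median difference was -0.37 in A and -0.41 in B, and in the longest decile it was 0.12 and 0.38. For the shortest decile the CD90pos minus CD90neg gap was -0.04 and -0.02 in IFNg libraries and 0.34 and 0.38 in control libraries. The median length was 1770 bases for ribosomal protein genes, 1815 for nuclear oxidative phosphorylation and 14026 for large chromatin regulators, against 4435 over all genes. With the trend of each library with length removed, an alternative added after the data were seen, the medians were -0.40, -0.40 and 0.46. Limma then called 0 genes, with 216 higher and 415 lower at an unadjusted p under 0.05, and 0 with the block. The part of length in the results was otherwise not tested.

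**Figure D4:**
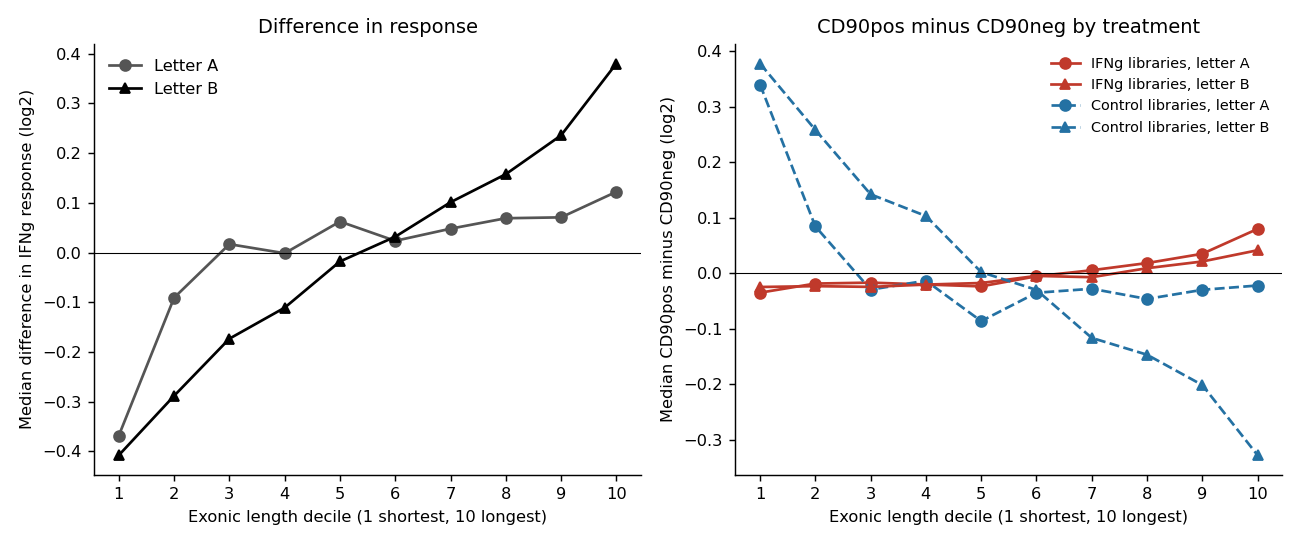
Median difference in IFNg response (left, log2) and median CD90pos minus CD90neg gap (right, log2) by decile of exonic length, shortest on the left of each x axis; circles are letter A and triangles letter B, solid red lines are IFNg libraries and dashed blue lines control libraries. The gap stays near 0 in IFNg libraries and slopes in control libraries, from 0.34 and 0.38 in the shortest decile.

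Epithelial and proliferation lists had smaller medians, and their counts stand beside 33.5% of all genes higher and 32.7% lower in both letters. Of 28 luminal and secretory genes, 16 were higher and 2 lower, with a median of 0.24 that ran from -0.43 to 1.15 when 1 library was left out and from 0.13 to 0.42 when this was done with the block. Muc4, a membrane mucin named after its values were seen, had 12.8 and 4220 normalised reads in CD90pos cells with IFNg and 0 and 388 in CD90pos controls, against 17.7 and 3869 in CD90neg cells with IFNg and 10.3 and 1873 in CD90neg controls. Its difference was 3.06 in A, near the limit of a few reads, and 2.39 in B, and DESeq2 called it with the block (adjusted p = 0.0176). The S phase list had 16 genes higher and 9 lower in both letters of 31, and the G2M list 16 higher and 8 lower of 29. Mki67, the Ki-67 antigen of dividing cells, had 4806 and 13046 in CD90pos cells with IFNg and 4079 and 6763 in CD90pos controls, against 5554 and 10193 in CD90neg cells with IFNg and 7908 and 12630 in CD90neg controls, and differed by 0.75 in A and 1.26 in B. Among cholesterol and fatty acid synthesis genes 14 of 28 were higher and 6 lower in both letters. Fasn, the fatty acid synthase, had 22774 and 27916 in CD90pos IFNg libraries and 14204 and 18027 in CD90pos controls, against 22088 and 28533 in CD90neg IFNg libraries and 29048 and 33539 in CD90neg controls. Its CD90pos controls lay below the other 6 libraries, and its difference was 0.97 ± 0.30. Notch1, the receptor, differed by 0.84 ± 0.28, with 0.54 in A and 1.14 in B. The medians of the p53, NFkB, glycolysis, and Notch and Wnt lists lay between 0.07 and 0.10, and that of the unfolded protein and integrated stress response list was -0.19.

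**Figure D5:**
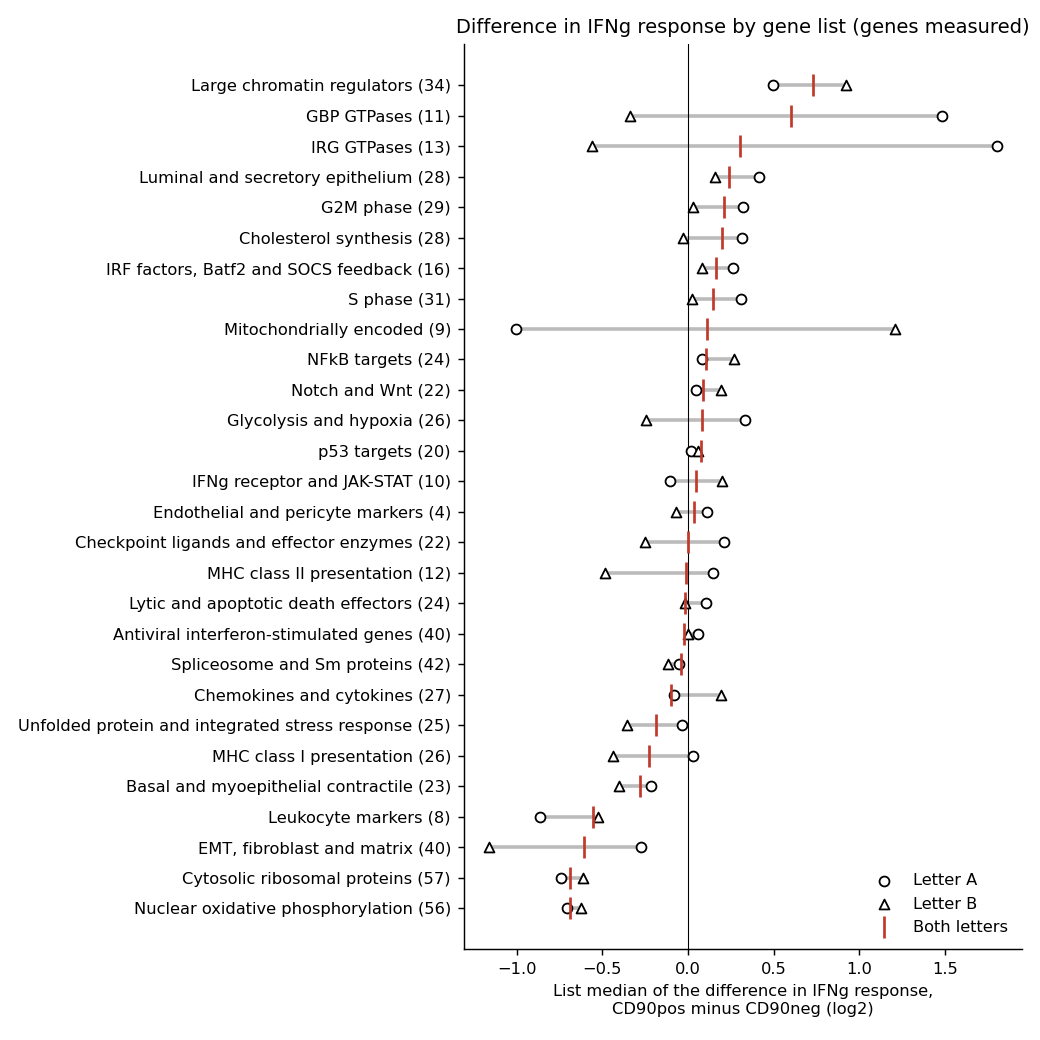
Median difference in IFNg response (x axis, log2, CD90pos minus CD90neg) of 28 gene lists (y axis, number of genes measured in brackets), with circles for letter A, triangles for letter B and red ticks for both letters together. Nuclear oxidative phosphorylation and ribosomal protein genes are lowest with close letters, at -0.69, large chromatin regulators highest at 0.73, and the GBP, IRG and mitochondrially encoded lists have letters of opposite sign.

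The sort marker was checked in every library. Thy1 had 2195 and 3936 normalised reads in CD90pos cells with IFNg and 283 and 1495 in CD90pos controls, against 55.7 and 65.5 in CD90neg cells with IFNg and 20.6 and 16.6 in CD90neg controls. All CD90pos libraries lay above all CD90neg libraries, as their labels say. The difference in response was 0.52 ± 1.08, with 1.55 in A and -0.52 in B. Of 26 leukocyte markers 8 were measured, and together they took 0.00511% and 0.00263% of reads in CD90pos cells with IFNg and 0.0114% and 0.00439% in CD90pos controls, against 0.00658% and 0.00321% in CD90neg cells with IFNg and 0.00784% and 0.00392% in CD90neg controls. The others, Ptprc (CD45) and the T and B cell receptor genes among them, were not found by symbol among the 12964 deposited genes. Their levels therefore cannot be read here. The 8 had a median difference of -0.56, with 5 lower and 0 higher in both letters, beside 32.7% and 33.5% of all genes. S100a8, a calcium-binding protein of neutrophils also made by stressed epithelium, had 43.4 and 52.1 in CD90pos IFNg libraries and 419 and 146 in CD90pos controls, against 119 and 77.5 in CD90neg IFNg libraries and 159 and 85.3 in CD90neg controls. Of 15 endothelial and pericyte markers 4 were measured, with a median difference of 0.04. The part of other cell types, and of the mitochondrial share of the CD90pos controls, in the differences was not tested.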

How the data were processed

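The authors deposited 1 table of normalised read counts, that is, a signal per gene and library. The submitters' processing notes name STAR and HTSeq without versions, with mm10 and GRCm38 as builds, and the normalisation and any filter are not given in the sources used here. Every column was made of whole multiples of 1 step (within 0.001), so whole reads were recovered for 100% of values, as reads divided by a size factor would give. Reads carry no molecular identifiers, so the floor of 3 reads covers counting error only. No column belonged to other samples.

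The main test was limma 3.58.1 (R 4.3.3) on log2(normalised reads + 1), with 4 group means, a variance trend, two-sided tests and Benjamini-Hochberg adjustment at 0.05, because the values are not raw counts. The same fit with the letter as a replicate block, edgeR 4.0.16 (quasi-likelihood) and DESeq2 1.42.0 on recovered reads were alternatives. Standard errors after ± are from the main fit, which had no term for the letter. The block fits treated the letters as pairs, since the A minus B differences of the groups correlated by 0.779 to 0.920 over 6 pairs of groups. The labels do not say what a letter stands for. The limma fits without and with the block, and edgeR without it, were tested on simulated reads that held no letter effect. DESeq2, edgeR with the block and the removal of the length trend were not tested in this way. Exonic lengths came from GENCODE vM21, where 12949 of 12964 gene identifiers matched. Genes were named from the up to 6 members a list with the smallest p (a choice among these 6 made with values seen, and not always in order of p), as the 5 genes a direction with the smallest p, and as Thy1. Acta2, Irf1, Cd274, Sat1, Ogn, Muc4 and Gbp2b were chosen after their values were seen. The members and the lists were chosen with earlier results of these data known, and the lists carry no test of their own. Genes named for a small p or after their values were seen will often have groups that do not overlap. The share of all genes with such groups was not counted.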

Additional observations from a re-analysis of the deposited data

How the results depend on the processing

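The 0 genes called by limma held in all 31 alternatives with 2 exceptions, DESeq2 with 182 genes and DESeq2 with the replicate block with 586. Leaving out 1 library at a time, without or with the block, gave 0 genes each time. The replicate block changed no limma call of a difference in response. With it, limma called many more responses and control gaps, as given above. DESeq2 called 168 genes both without and with the block. Of the 52 genes named, 40 kept their sign in every alternative, and 12 changed it when 1 library was left out and in no other alternative. The lowest and highest values without 1 library were -0.68 and 1.72 for Thy1, -0.34 and 4.70 for Cxcl9, -0.99 and 0.86 for Irf1, -0.94 and 1.17 for Cd274, -4.42 and 0.37 for H2-Ab1, -1.28 and 0.35 for Psmb9, -1.15 and 0.027 for B2m, -4.71 and 1.59 for Acta2, -5.15 and 1.18 for Tagln, -5.34 and 1.27 for Actg2, -1.57 and 7.03 for Muc4, and -3.65 and 5.55 for Gbp2b. Of the 40, 19 moved by over 1.5 times without some library, among them Gbp4 (0.064 to 5.65), Tgtp2 (0.13 to 4.57), Cd74 (0.042 to 2.80), Nos2 (1.85 to 4.79), Cxcl10 (0.47 to 2.35), Socs3 (0.074 to 0.87) and Mki67 (0.28 to 1.72). Single letters are not among these alternatives, and the sign of Cd74 differed between them. Without the block, leaving out a library sets a mean of 2 letters against a single letter, and the letters differ widely in Acta2, Tagln, Actg2, Muc4 and Gbp2b. List medians without 1 library, without or with the block, ranged from -1.40 to 0.94 for basal and contractile genes, -0.75 to -0.56 for nuclear oxidative phosphorylation, -0.74 to -0.62 for ribosomal proteins 0.37 to 1.03 for large chromatin regulators, -1.20 to -0.19 for mesenchymal and matrix genes, -1.05 to 1.06 for antiviral genes and -0.43 to 1.15 for luminal genes. With the length trend removed the medians were -0.40 for ribosomal proteins and -0.40 for nuclear oxidative phosphorylation, and within letter B nuclear oxidative phosphorylation had -0.62; the cause was not tested. With 2 libraries a group, small differences could not be detected at this depth of replication.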
